A study of Rattus norvegicus and Mus musculus with 18 samples.

Results

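Axin2, Lgr5, Rnf43, Tnfrsf19, Lef1, Tcf7, Dact2 and Nkd1 are 8 genes that respond to Wnt signalling or adjust a cell's response to it, and their transcripts were followed across the tissues of the embryonic kidney. They were found on the arrays as every probe set whose annotation names 1 of the 8 symbols and no other gene. This gave 26 probe sets among 71239 in the series, 17 of them for mouse and 9 for rat. The mouse probe sets covered 7 of the 8 genes, since no probe set of the mouse table is annotated to Tcf7 alone. In rat, Axin2, Lgr5 and Dact2 were on the first array design, Rnf43 and Nkd1 on design B, and Lef1 and Tcf7 on design C, while Tnfrsf19 had no annotated probe set.

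The metanephric kidney grows from the ureteric bud, an epithelial tube whose tips branch and whose stalks become collecting duct, and from the metanephric mesenchyme around it, which forms nephrons and stroma. Mouse tissue of E12.5 (embryonic day) was separated into bud tips (a pool of about 1000), bud stalks (about 350) and mesenchyme (about 300), and rat tissue of E13.5 into whole buds (about 1200) and mesenchyme (about 240). Strain and genotype are not named in the labels, and no group was described as treated beyond a digestion with DNase and trypsin for 10 min at 37 degrees C that all groups share. Each tissue was measured on 2 arrays per design, and the labels describe these as 2 labelings of 1 RNA, so the spread and the p-values below measure labelling and hybridisation and say nothing of how animals vary. With so few arrays the precision of each value is limited.

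In the canonical Wnt pathway, a Wnt ligand at the cell surface spares beta-catenin from a destruction complex, and beta-catenin then enters the nucleus and joins factors of the TCF/LEF family on DNA. Among the genes that are switched on in this way are several that damp the pathway, which makes them a common reading of where cells respond to Wnt. In the kidney, Wnt9b and Wnt11 from the bud act on the surrounding mesenchyme, and beta-catenin is needed both in branching bud tips and in nephron progenitors.

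Values are intensities after quantile normalisation within a table, and differences are on the log2(intensity + 16) scale, which understates the change of weak probe sets. A probe set was tested when its mean reached the table's median in at least 1 tissue, an intensity of 49.5 in mouse and, for rat, of 111 (first design), 118 (B) and 115 (C). Of the 26 probe sets, 21 did so, 14 in mouse and 7 in rat. The tables give no detection calls, so a value under that level means only that it lay in the lower part of its table. A difference is said to be a rise or a fall when its Benjamini-Hochberg adjusted p, from limma over all tested probe sets of the table, was under 0.05 and it was at least 2-fold, and such a probe set is called. Every adjusted p below comes from these limma fits.

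Bud epithelium markers were highest in tips and nephron progenitor markers highest in mesenchyme, while stalks carried both bud epithelium and stromal markers. The summed intensity of 12 bud epithelium markers, among them Cdh1, Calb1 and Ret, was 29426 and 30348 on the tip arrays, 15454.5 and 15804 on the stalk arrays, and 790 and 849 on the mesenchyme arrays. For 9 nephron progenitor markers it was 879 and 1002 in tips, 2419 and 2491 in stalks, and 7801 and 7928 in mesenchyme. The 8 stromal markers summed to 2149 and 2257 in tips, 15726 and 16096 in stalks, and 13791 and 14612 in mesenchyme, so the stalk arrays lay close to the mesenchyme arrays and slightly above them. All 12, 9 and 8 of these markers reached the level for testing. In rat, the second bud labelling had a Gapdh 3' to 5' signal ratio of 4.43 (first design), 5.28 (B) and 4.26 (C), against 1.25 to 1.47 on the other rat arrays.

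TCF/LEF factors bind DNA at the letters CTTTG followed by a pair of bases that are each A or T. The windows from 250 bases before to 20 bases after the annotated start of the rat genes (RefSeq, build GRCr8) were searched on both strands for CTTTGAA (in 4.95% of all such windows), CTTTGAT (3.33%), CTTTGTA (3.42%) and CTTTGTT (5.49%). SOX factors can bind similar letters. Of the 8 genes, 7 had a window and 4 of these held a match, as did 15.8% of the 33469 windows searched. Axin2 (chr10:94398535-94398804, plus strand) held 2, at -232 and -132 from the start site. Nkd1 (chr19:34722827-34723096, minus strand) held 1 at -141, Tcf7 (chr10:36954260-36954529, minus strand) 1 at -4, and Tnfrsf19 (chr15:39334547-39334816, minus strand) 1 on the opposite strand at -130. Dact2 (chr1:63863079-63863348, minus strand), the gene with the largest rat difference, held none, and neither did Rnf43 and Lef1. The windows of the 4 genes with a match and of Dact2 follow, 5' to 3' along the gene, with matches in capitals.
Axin2: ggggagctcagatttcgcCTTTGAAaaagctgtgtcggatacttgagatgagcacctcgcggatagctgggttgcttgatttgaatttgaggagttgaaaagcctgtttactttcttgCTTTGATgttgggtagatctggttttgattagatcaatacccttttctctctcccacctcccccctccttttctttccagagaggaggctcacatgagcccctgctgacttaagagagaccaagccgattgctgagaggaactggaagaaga
Nkd1: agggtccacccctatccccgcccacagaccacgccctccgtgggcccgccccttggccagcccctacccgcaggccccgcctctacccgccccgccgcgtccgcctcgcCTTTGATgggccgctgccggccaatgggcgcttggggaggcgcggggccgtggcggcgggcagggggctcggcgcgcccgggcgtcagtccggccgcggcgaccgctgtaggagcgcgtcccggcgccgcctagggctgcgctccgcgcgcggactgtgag
Tcf7: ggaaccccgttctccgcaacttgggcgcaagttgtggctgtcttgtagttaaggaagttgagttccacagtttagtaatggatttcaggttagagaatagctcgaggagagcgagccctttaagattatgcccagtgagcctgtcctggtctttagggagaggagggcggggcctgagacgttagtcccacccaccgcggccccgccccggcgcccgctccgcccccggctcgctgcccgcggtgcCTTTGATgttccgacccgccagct
Tnfrsf19: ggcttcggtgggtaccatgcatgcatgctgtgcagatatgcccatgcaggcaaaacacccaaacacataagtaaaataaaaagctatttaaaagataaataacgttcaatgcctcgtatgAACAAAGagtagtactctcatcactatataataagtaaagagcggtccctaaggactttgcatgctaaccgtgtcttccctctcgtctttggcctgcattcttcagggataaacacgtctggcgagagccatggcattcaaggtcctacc
Dact2: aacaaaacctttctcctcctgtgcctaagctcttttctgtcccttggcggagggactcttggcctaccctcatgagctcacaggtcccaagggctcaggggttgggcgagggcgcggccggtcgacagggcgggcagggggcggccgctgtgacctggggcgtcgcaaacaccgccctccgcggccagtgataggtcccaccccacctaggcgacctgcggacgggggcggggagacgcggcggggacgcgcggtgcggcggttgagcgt
The window of Nkd1 was 79.6% G and C, that of Dact2 69.6% and that of Axin2 47.4%. A match describes letters only, and no measurement of factor binding is part of the series.

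In mouse, Axin2, Lgr5, Rnf43, Tnfrsf19 and Dact2 each had a probe set that was highest in tips, lower in stalks and lowest in mesenchyme, Nkd1 was lowest in tips, and Lef1 differed little between the tissues. In 9 of the 14 tested probe sets the arrays stood in the order tip, stalk, mesenchyme with no overlap, as they did in 9.78% of all tested probe sets. The 9 were not independent, since 3 are of Tnfrsf19 and 2 of Dact2. Another is of Lef1, whose tips and stalks differed by only 0.12, so small differences can also meet this order. Of the 14, those of Lgr5 and Rnf43, 1 of Tnfrsf19 and 1 of Dact2 reached the level for testing through bud tissue alone. For these the level limit favoured a lower mesenchyme, so the count of ordered probe sets is no independent support for higher buds.

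**Figure D1:**
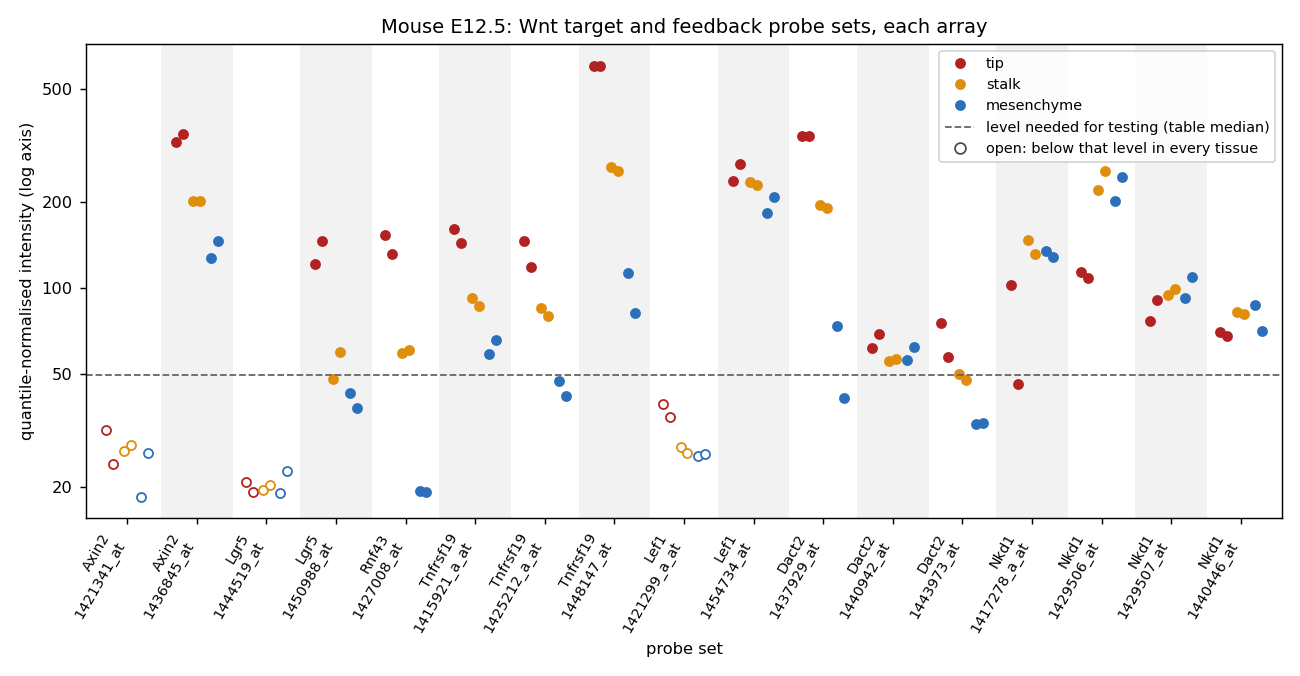
Quantile-normalised intensity (log axis) of all 17 mouse probe sets on each of the 6 arrays, with 2 points for each tissue. Open points mark the 3 probe sets that stayed under the level for testing (dashed line) in every tissue. The tip points of Axin2 1436845_at, Lgr5 1450988_at, Rnf43, all Tnfrsf19 probe sets and Dact2 1437929_at lie above their stalk and mesenchyme points, and those of Nkd1 1429506_at below.

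Axin2 encodes the scaffold of the destruction complex that is itself induced by beta-catenin, the textbook negative feedback of the pathway. Its probe set 1436845_at stood at 325 and 347 in tips, 202 and 203 in stalks, and 127 and 146 in mesenchyme, so the arrays of the 3 tissues did not overlap. The rise in tips over mesenchyme was 1.21 (SE 0.10, adjusted p = 1.99e-05). Tips differed from stalks by 0.69 (adjusted p = 0.00102) and stalks from mesenchyme by 0.52 (adjusted p = 0.0087), both under the 2-fold limit, and the latter had adjusted p values of 0.0907 and 0.0925 when either stalk array was left out and 0.0618 without mesenchyme array 1. The other Axin2 probe set, 1421341_at, lay between 18.5 and 31.6 on all arrays and was not tested.

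Rnf43 encodes a membrane ubiquitin ligase that removes Frizzled receptors from the cell surface, again a feedback inhibitor. The intensities were 153 and 132 in tips, 59.1 and 60.7 in stalks, and 19.4 and 19.2 in mesenchyme. Each step was a rise, by 1.06 from stalks to tips (SE 0.13, adjusted p = 0.000484), by 1.10 from mesenchyme to stalks (adjusted p = 0.000645) and by 2.16 from mesenchyme to tips (adjusted p = 3.1e-06). Without the first tip array the step from stalks to tips was 0.96 and no longer reached 2-fold.

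Lgr5 is a receptor for R-spondins, secreted proteins that shield Frizzled receptors from Rnf43 and Znrf3, and it marks Wnt-responsive stem cells in several organs. Probe set 1450988_at was at 122 and 147 in tips, 47.8 and 59.6 in stalks, and 43.0 and 37.9 in mesenchyme. It rose in tips over stalks by 1.11 (SE 0.15, adjusted p = 0.000796) and over mesenchyme by 1.41 (adjusted p = 0.00012). Stalks and mesenchyme differed by 0.30 (95% interval -0.05 to 0.65, adjusted p = 0.271). The tip-to-stalk difference was 0.99 without the second tip array and 0.98 without the first stalk array, both just under 2-fold. Its second probe set, 1444519_at, stayed between 19.05 and 22.85 on all 6 arrays.

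Tnfrsf19, also called Troy, is a receptor of the tumour necrosis factor family that is induced by Wnt signalling. On 1448147_at it read 599.6 and 604 in tips, 267 and 257 in stalks, and 113 and 81.7 in mesenchyme. Tips rose over stalks by 1.15 (SE 0.12, adjusted p = 0.000192) and over mesenchyme by 2.46 (adjusted p = 8.63e-07), and stalks rose over mesenchyme by 1.31 (adjusted p = 0.000144). Probe sets 1415921_a_at (161 and 144 in tips, 58.9 and 65.9 in mesenchyme) and 1425212_a_at (147 and 118 in tips, 47.2 and 41.9 in mesenchyme) also rose in tips over mesenchyme, by 1.10 and 1.29. On these, tips differed from stalks by 0.68 and 0.59, with adjusted p values of 0.00461 and 0.0153 but under 2-fold. Without the second stalk array the adjusted p values were 0.0668 and 0.136, and without the first that of 1425212_a_at was 0.0987. All 3 probe sets thus had the same order of tissues, with differences of unequal size.

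Dact2 encodes a protein that binds Dishevelled, the relay between Frizzled receptors and the destruction complex. On 1437929_at it was at 343 and 342 in tips, 196 and 191 in stalks, and 73.5 and 41.1 in mesenchyme. The 2 mesenchyme arrays were far apart, yet tips rose over mesenchyme by 2.33 (SE 0.19, adjusted p = 1.65e-05) and stalks by 1.55 (adjusted p = 0.000601). The difference between tips and stalks was 0.78 (adjusted p = 0.0137), under 2-fold, with adjusted p = 0.0747 and 0.0824 without the first and the second stalk array. On 1443973_at tips read 75.3 and 57.2 against 33.2 and 33.5 in mesenchyme, and the tissues differed by 0.73 (adjusted p = 0.00477), again under 2-fold. Probe set 1440942_at did not follow this order, with 61.8 and 69.2 in tips, 55.5 and 56.15 in stalks, and 56.1 and 62.3 in mesenchyme, and its tips differed from mesenchyme by 0.12 (95% interval -0.19 to 0.42).

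Nkd1, which also binds Dishevelled and limits Wnt signalling, ran the other way. On 1429506_at it was at 114 and 109 in tips, 222 and 257 in stalks, and 203 and 246 in mesenchyme, with every tip array below the rest. In tips it differed from stalks by -1.001 (SE 0.12, adjusted p = 0.000416), a fall at the fold limit, and from mesenchyme by -0.91 (adjusted p = 0.00047), under 2-fold. Without the second tip array or the second stalk array the tip-to-stalk difference was -0.97 or -0.90, no longer 2-fold, and without the first mesenchyme array the difference from mesenchyme was -1.04, past 2-fold. Stalks and mesenchyme overlapped and differed by 0.09 (95% interval -0.19 to 0.37). On 1417278_a_at the tip arrays disagreed, at 103 and 46.2 against 148 and 131 in stalks and 134 and 129 in mesenchyme, and the difference from stalks of -0.85 had an adjusted p of 0.0364. That difference was -1.32 without the first tip array, past 2-fold, and -0.39 without the second (adjusted p = 0.0537). Probe sets 1429507_at and 1440446_at had tip values of 76.7 and 91.0, and of 70.25 and 68.0, below their stalk and mesenchyme values, but differed from stalks by only -0.18 and -0.20 (adjusted p = 0.371 and 0.323). In all 4 Nkd1 probe sets both tip arrays lay below all stalk and mesenchyme arrays. Of the 14 tested probe sets of the listed genes only these 4 had this order, near the 21.9% of all tested probe sets, so the count is no result about the genes. The 4 are of 1 gene on the same arrays and are not independent. On 1429507_at and 1440446_at the highest tip values, 91.0 and 70.25, lay just below the lowest mesenchyme values, 92.6 and 70.95.

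Lef1, a DNA-binding partner of beta-catenin, was at 238 and 272 in tips, 236 and 231 in stalks, and 183 and 209.6 in mesenchyme on 1454734_at. The tip-to-mesenchyme difference of 0.35 had an adjusted p of 0.0293 but was far from 2-fold, and it had adjusted p = 0.106 without the second tip array and 0.174 without the first mesenchyme array. Tips and stalks differed by 0.12 (95% interval -0.12 to 0.35) and stalks and mesenchyme by 0.24 (adjusted p = 0.2, with a 95% interval reaching 0.47). The second Lef1 probe set, 1421299_a_at, was weak, at 25.7 to 39.25 on all arrays, and was not tested.

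**Figure D2:**
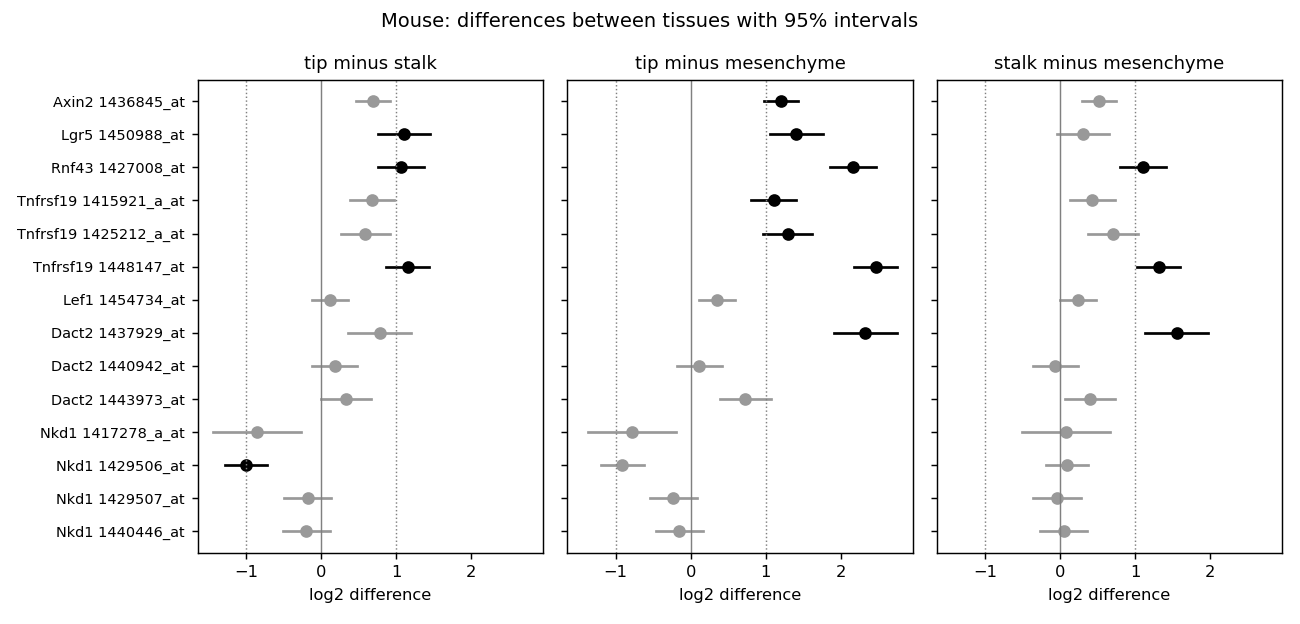
Log2 differences with 95% intervals (x axis) of the 14 tested mouse probe sets (rows) between tips and stalks, tips and mesenchyme, and stalks and mesenchyme. Dotted lines mark a 2-fold difference, and black marks a rise or fall by the call rule. Most points other than those of Nkd1 lie right of 0 when tips are compared, and Nkd1 lies left of it.

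Counted over the comparisons, 3 of the 14 tested probe sets rose in tips over stalks (Lgr5, Rnf43 and 1 of Tnfrsf19), against 0.953% of all 23937, and 1, of Nkd1, fell, against 3.63%. In tips over mesenchyme 7 rose, against 3.9% of all, and none fell by limma with the 2-fold limit (4.27% of all), while 2, both of Nkd1, were lower by adjusted p alone (17.6%) and the same number by unadjusted p. In stalks over mesenchyme 3 rose (Rnf43, 1 of Tnfrsf19 and 1 of Dact2), against 2.34%. By adjusted p alone, 7 were higher (13.9% of all) and 2 lower (14.8%) in tips than in stalks, 9 higher in tips than in mesenchyme (16.1%) and 5 higher in stalks than in mesenchyme (8.16%). With a pseudocount of 64, which shrinks weak probe sets more, the tip-to-stalk differences of Lgr5 (0.75), Rnf43 (0.74) and Nkd1 (-0.79) and the tip-to-mesenchyme differences of Axin2 (0.99), Lgr5 (0.92) and 2 Tnfrsf19 probe sets (0.78 and 0.85) were under 2-fold, as was that of Rnf43 between stalks and mesenchyme (0.57). These comparisons share arrays, so their counts are not independent of each other. Lgr5, Rnf43, 1 of Tnfrsf19 and 1 of Dact2 were tested through bud tissue alone, which favours a lower mesenchyme. The counts of probe sets higher than in mesenchyme are therefore no independent support for higher buds. In pools of tissue, fewer cells of a type and less RNA per cell cannot be told apart. The median tip-to-stalk difference of the 12 bud epithelium markers was 0.98, with 5 of 12 rising, and that of the 8 stromal markers was -3.22, with 8 of 8 falling. The Wnt genes that rose in tips over stalks differed by 1.06 to 1.15, and the Nkd1 probe set that fell differed by -1.001. The part of the epithelial and stromal share of each pool in these differences was not tested. Nor was it tested for the falls in tips of relatives, receptors and other target genes given below.

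For each gene with a rise or fall in mouse, the 3 genes most alike over the 3 tissue means (smallest Euclidean distance of centred log2 values among 12358 other tested genes) were also found. For Axin2 these were Igsf5, Gadd45a and Pgm1 at distances of 0.03 to 0.04. For Lgr5 they were Frmd5 (0.01), Krtcap3 (0.03) and Rapgef5 (0.05). Rnf43 was nearest to Dcbld1, S100a6 and Pgr, and Tnfrsf19 to Chrna7, Lix1 and Sall4. Dact2 lay nearest to Sostdc1 (0.03), L1cam (0.06) and Fgfr4 (0.07), and Nkd1 nearest to Cyth3 (0.01), Fn1 (0.02) and Rcn3 (0.02). With 3 tissue means, many genes can share such a shape.

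The close relatives of these genes were split. Znrf3, the other ubiquitin ligase that clears Frizzled receptors, followed Rnf43, with 395 ± 30.8 (SD, n = 2) in tips, 249 ± 9.40 in stalks and 163 ± 13.6 in mesenchyme, and rose in tips over mesenchyme by 1.19 (adjusted p = 1.65e-05). Dact1 ran opposite to Dact2 where tips were compared, though both were higher in stalks than in mesenchyme. It was at 245 ± 10.9 in tips, 2157 ± 71.9 in stalks and 1387 ± 76.4 in mesenchyme, and tips fell below stalks, at -3.06 (adjusted p = 8.28e-09). Dact3 fell in tips too (-1.28 relative to stalks and -1.38 relative to mesenchyme). Axin1, the scaffold that is not known as a Wnt target, was at 355 ± 3.18, 286 ± 3.31 and 299 ± 2.28 in tips, stalks and mesenchyme, and differed by 0.24 between tips and mesenchyme.

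Lgr4, the broadly expressed R-spondin receptor, was highest in stalks (1650.2 ± 62.1), and tips (1083 ± 12.1) and mesenchyme (1110.2 ± 62.9) differed by -0.03. Lgr6 differed between tips and stalks by -0.01 (adjusted p = 0.97). Of the other DNA-binding partners of beta-catenin, Tcf7l1 differed between tips and mesenchyme by -0.62 and Tcf7l2 by -0.93, with adjusted p values of 0.000279 and 0.00168 and neither at 2-fold. Nkd2 was at 63.7 ± 6.58 in tips and 63.6 ± 0.08 in mesenchyme. Among the 9 relatives, 0 rose and 2 fell in tips relative to stalks (median -0.21, over all tested probe sets 0.06), and 1 rose and 2 fell relative to mesenchyme (median -0.46, all 0.01). Of all tested probe sets 0.953% rose and 3.63% fell relative to stalks, and 3.9% and 4.27% relative to mesenchyme, so 0 of 9 rising is no result about the relatives. In stalks against mesenchyme none of the 9 was called by limma, where 2.77% of all tested probe sets were, so this too is no result about the relatives. There 4 had both an adjusted and an unadjusted p under 0.05, 3 of them higher in stalks. Of all tested probe sets 13.1% had an adjusted p under 0.05.

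**Figure D3:**
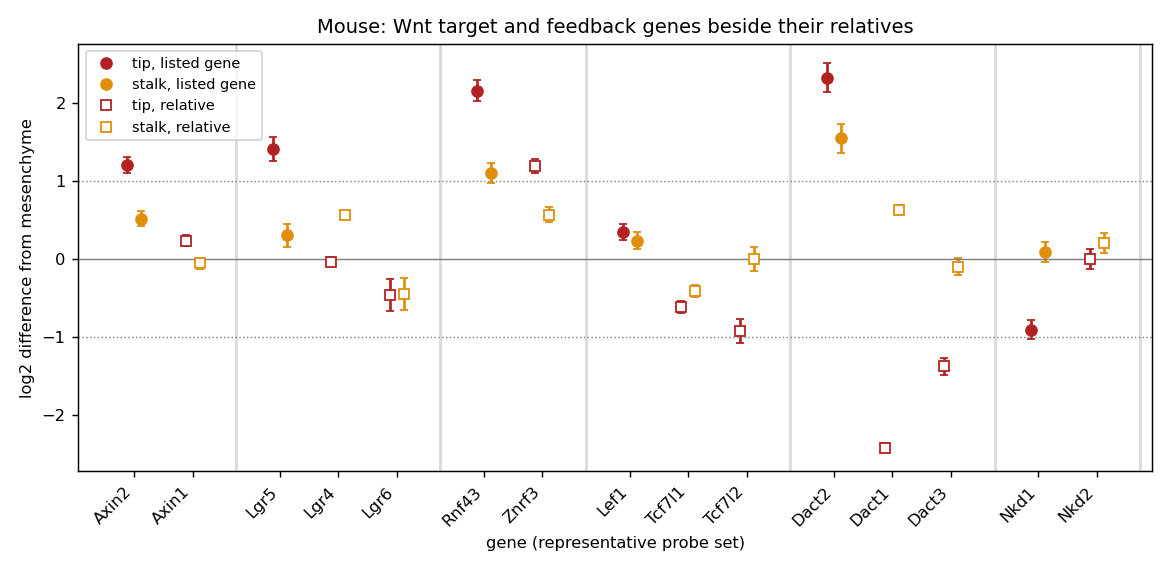
Log2 difference of mouse tips and stalks from mesenchyme (y axis, with the standard error as bars) for the representative probe sets of 6 of the listed genes (filled circles) and their relatives (open squares), grouped by family. Dact2 lies above 0 and Dact1 below it in tips, Rnf43 and Znrf3 lie above 0 together, and Nkd1 lies below Nkd2 in tips.

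The core machinery of the pathway was near the background. Ctnnb1, which encodes beta-catenin itself, was at 8148 ± 57.0 in tips, 8953 ± 327 in stalks and 8870.1 ± 267 in mesenchyme. Tips differed from stalks by -0.14 (adjusted p = 0.0351). None of the 14 tested genes of beta-catenin and its destruction complex was called by limma in any of the 3 mouse comparisons, while 4, 3 and 1 had an adjusted p under 0.05, and 6, 5 and 2 an unadjusted p under 0.05, in tips against stalks, tips against mesenchyme and stalks against mesenchyme. The same held for 16 nuclear partners and co-repressors, with 0 called, 4, 6 and 3 at an adjusted p under 0.05 and 5, 7 and 7 at an unadjusted one. Over all tested probe sets 4.59%, 8.16% and 2.77% were called and 28.6%, 33.7% and 13.1% had an adjusted p under 0.05 in the 3 comparisons, so few or no calls are usual for lists of this size. The co-receptor Lrp6 was at 350 ± 3.13 in tips and 435 ± 4.01 in mesenchyme, and differed by -0.30.

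Among 14 tested Wnt receptors and co-receptors, 1 rose and 4 fell in tips relative to stalks, and 3 rose and 4 fell relative to mesenchyme, with medians of -0.07 and -0.10. Over all tested probe sets 0.953% rose and 3.63% fell in the first of these comparisons, and 3.9% rose and 4.27% fell in the second. Fzd6 was at 642 ± 13.2 in tips, 325 ± 8.24 in stalks and 88.7 ± 1.64 in mesenchyme, and rose by 2.65 in tips over mesenchyme (adjusted p = 2.9e-08). Fzd5 (1.48) and Fzd8 (1.49) rose there too, and Fzd8 rose over stalks (1.03). Fzd1 fell in tips relative to stalks (-2.15) and mesenchyme (-1.69), as did Fzd2 (-1.06 and -1.499). Fzd7 fell relative to stalks (-1.14), and the Wnt5a-type receptors Ror1 (-2.09 relative to stalks) and Ror2 (-1.79 relative to mesenchyme) also fell in tips. In stalks over mesenchyme Fzd5 (1.11) and Fzd6 (1.70) rose, where 2.34% of all did.

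Other known Wnt target genes were split. Of 13 tested, 1 rose and 4 fell in tips relative to stalks (median -0.40), 3 rose and 2 fell relative to mesenchyme (median 0.12), and 2 rose in stalks over mesenchyme (median 0.69, over all tested probe sets -0.05). The shares of all tested probe sets were 0.953% rising and 3.63% falling, 3.9% rising and 4.27% falling, and 2.34% rising. The cell cycle gene Ccnd1 was at 2357 ± 149 in tips and 1104 ± 50.6 in mesenchyme (1.08), the transcription factor Sox9 rose in tips (1.17) and in stalks (1.58) over mesenchyme, and the adhesion molecule Nrcam rose in tips over both. Apcdd1, a membrane inhibitor of Wnt signalling, was highest in stalks, at 740 ± 64.6 against 220 ± 4.44 in tips and 273 ± 0.05 in mesenchyme, a tip-to-stalk difference of -1.68 and a stalk-to-mesenchyme difference of 1.38. The growth regulator Id2 fell in tips relative to stalks (-1.42) and mesenchyme (-1.25), as did the surface receptor Cd44 (-1.16 and -1.86). Bambi, a decoy receptor of the TGF-beta family, fell relative to stalks (-1.01). Sp5, a transcription factor induced by Wnt in many tissues, stayed at 43.3 to 47.8 in all 3 tissue means and was not tested.

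In rat, the comparison of whole buds with mesenchyme gave 2 rises among the 7 tested probe sets, Dact2 and Tcf7, on designs where 2.77% and 2.23% of all tested probe sets rose. Dact2, Tcf7 and Rnf43 reached the level for testing through buds alone, with mesenchyme means of 46.6, 90.9 and 94.35. The count of rises is therefore no independent support for higher buds. Dact2 on the first design was at 488 and 724 in buds and at 44.45 and 48.75 in mesenchyme. The rise of 3.29 (SE 0.20, adjusted p = 0.000183) was the largest among the rat probe sets of the 8 genes, and it was 3.01 without the second bud labelling. Dact2 thus rose in both species, in mouse on 1437929_at but not on its other tested probe sets. No test was made between the species, since mouse tips and rat buds were on separate tables.

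Tcf7, a DNA-binding partner of beta-catenin that is itself a Wnt target in many tissues, was on design C. It was at 373 and 569 in buds and at 82.8 and 98.95 in mesenchyme, a rise of 2.16 (SE 0.21, adjusted p = 0.00495). Without the second bud labelling the rise was 1.87 (adjusted p = 0.00859). Without the first or the second mesenchyme array the difference was 2.05 or 2.27, and the adjusted p of 0.0809 or 0.0561 no longer passed. Its relative Lef1 on the same design read 259.9 and 279.6 in buds and 266 and 250.35 in mesenchyme, overlapping, with a difference of 0.06 (95% interval -0.20 to 0.32). The other Lef1 probe set lay between 92.0 and 106 and was not tested.

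Rnf43 on design B was at 158 and 176 in buds and at 94.5 and 94.2 in mesenchyme. On this design 9.51% of all tested probe sets were higher in buds with an adjusted p under 0.05. The Rnf43 difference of 0.73 (SE 0.12) had an adjusted p of 0.00995 but was under 2-fold. It had adjusted p values of 0.0609 and 0.0677 without the first and the second mesenchyme array. None of the 3 probe sets on design B was called by limma with the fold limit (5.81% of all), and Rnf43 alone had an adjusted, or an unadjusted, p under 0.05. The Nkd1 probe sets overlapped between the tissues, at 135 and 155 in buds against 135 and 161 in mesenchyme, and at 169.8 and 165 against 220.5 and 163. Their differences were -0.03 (95% interval -0.35 to 0.29) and -0.17 (95% interval -0.53 to 0.20).

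Axin2 on the first rat design was at 105 and 96.35 in buds and at 107 and 115 in mesenchyme, and differed by -0.12 (95% interval -0.47 to 0.23, adjusted p = 0.678). It lay at the table's median, and it reached the level for testing through mesenchyme. Lgr5 was under that level, at 43.45 and 52.7 in buds and 33.0 and 31.5 in mesenchyme, with both bud arrays above both mesenchyme arrays.

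**Figure D4:**
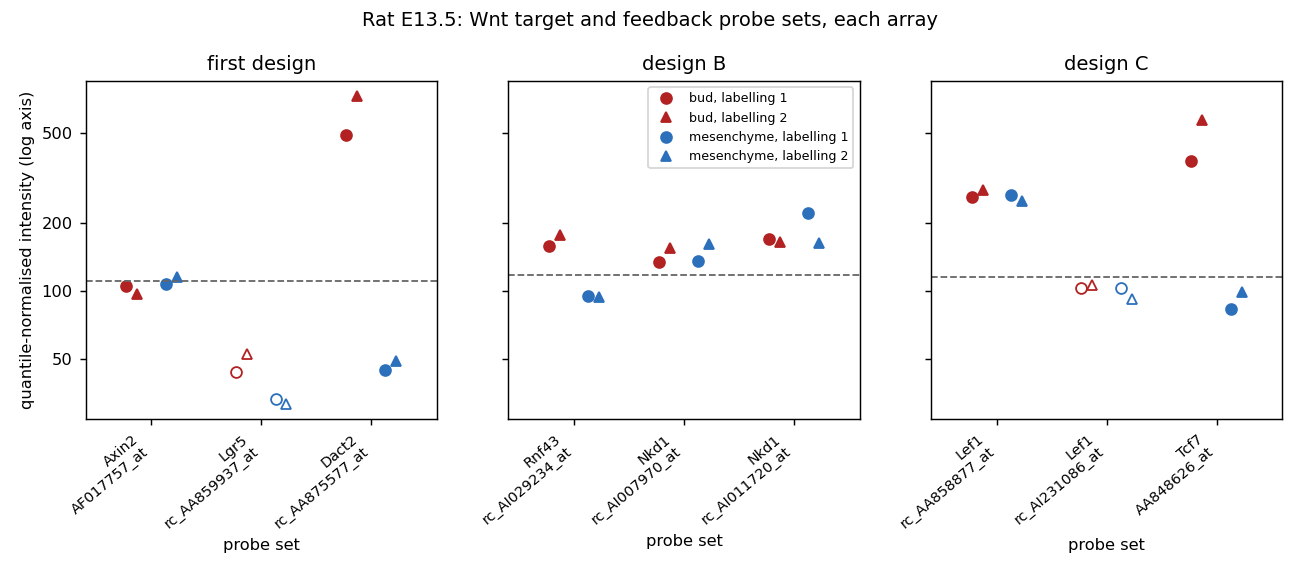
Quantile-normalised intensity (log axis) of the 9 rat probe sets on the 3 array designs, with buds in red, mesenchyme in blue, and a circle and a triangle for the first and second labelling. Open symbols mark the 2 probe sets under the level for testing (dashed lines), and the bud symbols of Dact2, Tcf7 and Rnf43 lie above those of mesenchyme.

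Among the relatives and pathway genes measured in rat, Dact1 fell in buds (-1.99, 161 ± 34.5 against 681 ± 17.4, adjusted p = 0.00251), as it did in mouse tips relative to mesenchyme (-2.42). Without the first mesenchyme array no relative on design C was called. Fzd1 fell (-1.49) and Fzd6 rose (1.24) in rat buds. Ccnd1 rose (1.23) and Id2 fell (-1.28). Axin1 differed by 0.01 and Lgr4 by -0.73, the latter with an adjusted p of 0.0288 and under 2-fold. Tcf7l1 differed by -0.26, Nkd2 by -0.05 and Lrp6 by -0.24, none past the test, and Ctnnb1 on design B by 0.38 (adjusted p = 0.451), with an SD of 895 around 2180 in buds. Bud marker sums on the first design were 4964 and 5068 in buds and 876 and 933 in mesenchyme, and stromal sums 1089 and 1244 against 5900 and 6544.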

How the data were processed

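Affymetrix arrays measured 18 samples, 6 of mouse and 12 of rat, with groups and labelling numbers taken from the sample titles. The values the authors deposited are linear intensities in 4 tables. How they were scaled and summarised is not given in the sources used here. The spread of the arrays' 2% trimmed means was 10.4% for mouse and 2.44%, 4.28% and 4.07% for the rat designs. Each table was quantile normalised here, put on the log2(intensity + 16) scale and stripped of control probe sets. limma 3.58.1 in R 4.3.3 (lmFit, eBayes with an intensity trend) was fitted on all 6 mouse arrays together and on each rat table alone, and was tested on simulated data. Gene names came from GEO's platform annotation. Pathway and marker lists used the single-symbol probe set with the highest mean. The genes, lists and tests were chosen with earlier results of these data known. Named genes were every probe set of the 8 genes, up to 4 called genes per other list and comparison, and 11 further Wnt genes. Alternatives covered normalisation, pseudocount, level limit, trend, fold limit, replicate block, arrays in the fit, averaging of probe sets and leaving out each array.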

Additional observations from a re-analysis of the deposited data

Results flagged for a closer look

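Axin2 was singled out because its arrays were ordered oppositely in the 2 species, although the rat difference has no established direction. In mouse all tip and stalk arrays lay above both mesenchyme arrays, with a mean bud difference of 0.86 on the log2 scale for 1436845_at. In rat both bud arrays lay below both mesenchyme arrays, with a difference of -0.12 for AF017757_at, whose limma adjusted p was 0.678 and whose 95% interval, -0.47 to 0.23, includes higher buds. The difference between the species was not tested, since the tables were normalised separately, and the rat probe set lay at the median of its table.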

How the results depend on the processing

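Over 749 values of the tested probe sets of the 8 genes under the alternatives, 709 kept their direction and their side of the call rule. Many of the 749 could not change direction. The settings for level limit, trend, fold limit, replicate block and arrays in the fit leave a difference as it was. Leaving out an array of a tissue that is not compared does the same. The 709 is therefore no measure of how robust the differences are. With a pseudocount of 64 the called probe sets numbered 671, 1266 and 392 for mouse tips against stalks, tips against mesenchyme and stalks against mesenchyme (1098, 1954 and 663 in the reported fits), and 172 for rat design B (271 reported); those of the 8 genes fell from 4 to 1 and from 7 to 3 in the first 2. By adjusted p alone the counts were 6847, 8063 and 3131 in mouse and 538, 816 and 522 on the rat designs, and those of the 8 genes 9, 11 and 5 in mouse and 1 on design B; 48.4% of calls were then higher in tips than in stalks (20.8% with the fold limit) and 62.4% higher in stalks than in mesenchyme (84.6%). Leaving out each array in turn gave 1058 to 1258, 1954 to 2043 and 651 to 698 calls in mouse, 239 to 475, 226 to 371 and 80 to 361 on the rat designs, and 2 to 4, 7 to 8 and 3 calls of the 8 genes in mouse, with 1, 0 and 0 to 1 in rat; a tissue left with 1 array is assumed to vary like the others. The low end on design C, 80 and 95, came without the first and the second mesenchyme array, and 475 on the first design and 361 on design C without the first bud array. Changes of sign occurred in Nkd1 differences that were not called: between mouse stalks and mesenchyme, 0.00266 for 1429507_at with values as deposited, and, leaving out single arrays, ranges of -0.00212 to 0.150 for 1417278_a_at, -0.0415 to 0.221 for 1429506_at, -0.154 to 0.0564 for 1429507_at and -0.0798 to 0.167 for 1440446_at; in rat, ranges of -0.145 to 0.0837 for rc_AI007970_at and -0.366 to 0.0345 for rc_AI011720_at. The cause of these changes was not tested. The labelling numbers are shared across tissues, but the labels do not say that a number marks a common day or batch. Labelling differences correlated between tissues at r = 0.42 to 0.57 in mouse and 0.22 to 0.31 in rat across probe sets. With the replicate block the counts were 1098, 1954 and 663 in mouse and 309, 276 and 221 in rat, and the calls of the 8 genes numbered 4, 7 and 3 and 1, 0 and 1. Depth in the sense of read counts does not apply to arrays, and the signal over background is unknown, so weak probe sets are the least certain.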
